A study of Mus musculus with 6 samples.

Results

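The crystallins are described here in RPE-choroid of mice with laser-induced subretinal fibrosis and of untreated mice. The genes were taken by symbol: the alpha crystallins Cryaa and Cryab, the beta crystallins Cryba1, Cryba2, Cryba4, Crybb1, Crybb2 and Crybb3, and the gamma crystallins Crygb and Crygs. All 10 were found among the 15663 genes listed. The study sequenced total RNA of RPE-choroid, the pigment epithelium with the vascular layer behind it, from 3 control and 3 fibrosis mice, 1 library a mouse. All were C57BL/6J males aged 8 to 10 weeks, as the study's methods give them. Control mice were untreated. Fibrosis mice received 4 laser burns around the optic disc in each eye, and each lesion was burned again after 10 days. Their tissue was collected 20 days after this later burn. The model is an injury to small areas, so each fibrosis library holds lesions together with the tissue between them.

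Crystallins are the soluble proteins that make the lens transparent and refractive. The alpha crystallins are small heat shock proteins that keep other proteins from aggregating, and the beta and gamma crystallins share a fold of their own and are packed at high concentration in lens fibre cells. Cryab is also made outside the lens, in RPE, glia, heart and skeletal muscle, whereas the other genes are known mainly from the lens, with lower expression reported in other parts of the eye. In this text, lens crystallins means the 9 genes other than Cryab.

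The promoters are shown to describe the genes, and no link between them and the levels given further on was tested. Those of Crygb and Crygs, whose groups did not overlap, stand beside 3 that differ in the number of matches. Each run is the 250 bases before the RefSeq start on GRCm38.p6, in the direction of the gene. Capitals mark TGCTGA, the half-site bound by Maf transcription factors, which drive crystallin genes in the lens, and TATAAA, the core promoter element bound by the TATA-binding protein. Both strands were searched, so that a match on the opposite strand reads TCAGCA. The regions are chr1:65082291-65082540 (minus strand) for Crygb, chr16:22811411-22811660 (minus strand) for Crygs, chr17:31677681-31677930 (plus strand) for Cryaa, chr11:77725294-77725543 (minus strand) for Cryba1 and chr5:112252519-112252768 (minus strand) for Cryba4.
Crygb: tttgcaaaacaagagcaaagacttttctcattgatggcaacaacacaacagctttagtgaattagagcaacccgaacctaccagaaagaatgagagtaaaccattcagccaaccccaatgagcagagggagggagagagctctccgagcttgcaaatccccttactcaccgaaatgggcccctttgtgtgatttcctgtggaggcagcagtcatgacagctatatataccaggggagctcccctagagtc
Crygs: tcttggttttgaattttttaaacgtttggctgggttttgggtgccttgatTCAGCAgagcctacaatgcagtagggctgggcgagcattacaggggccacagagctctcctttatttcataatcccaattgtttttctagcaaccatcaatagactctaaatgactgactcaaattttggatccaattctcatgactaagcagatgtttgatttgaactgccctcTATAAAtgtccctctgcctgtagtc
Cryaa: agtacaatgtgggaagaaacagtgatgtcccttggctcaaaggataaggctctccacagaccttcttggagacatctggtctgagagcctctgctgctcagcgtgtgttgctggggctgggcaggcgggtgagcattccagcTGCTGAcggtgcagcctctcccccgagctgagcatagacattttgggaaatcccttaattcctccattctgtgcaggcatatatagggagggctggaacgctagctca
Cryba1: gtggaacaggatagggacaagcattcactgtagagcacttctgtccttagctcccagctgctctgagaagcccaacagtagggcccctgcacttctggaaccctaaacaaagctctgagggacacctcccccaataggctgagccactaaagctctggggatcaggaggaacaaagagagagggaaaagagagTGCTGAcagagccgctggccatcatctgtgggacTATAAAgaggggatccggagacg
Cryba4: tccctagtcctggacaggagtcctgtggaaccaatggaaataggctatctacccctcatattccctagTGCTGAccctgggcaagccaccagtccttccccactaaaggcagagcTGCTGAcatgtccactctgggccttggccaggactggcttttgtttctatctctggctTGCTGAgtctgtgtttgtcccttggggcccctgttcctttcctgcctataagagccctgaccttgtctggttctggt

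Promoters were matched for 9 of the 10 genes, all but Cryab. TGCTGA stood in 7 of these 9, against 16.1% of 32851 promoters of the same length. It was found 3 times before Cryba4, at 182, 135 and 77 bases before the start, and once each before Cryaa, Cryba1, Cryba2, Crybb1, Crybb3 and Crygs. TATAAA stood in 3 of the 9 (Cryba1, Crybb1 and Crygs), at 23 to 30 bases before the start, against 12.4% of promoters. Crygb and Crybb2 held neither run of letters in this window. The matches describe the sequence only.

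The genes lie on 6 chromosomes. On GRCm38, Cryba4 (chr5:112246493-112252518) and Crybb1 (chr5:112255815-112269585) lie close together on chromosome 5 and are read away from each other. Crybb2 (chr5:113058258-113070117) and Crybb3 (chr5:113075839-113081584) form a separate pair further along the same chromosome. Crygb (chr1:65080219-65082288) and Cryba2 (chr1:74889934-74893143) are on chromosome 1. Cryaa is at chr17:31677807-31681733, Cryab at chr9:50751325-50756636, Cryba1 at chr11:77718615-77725283 and Crygs at chr16:22805203-22811577. These extents are from GENCODE, and the RefSeq starts of Cryaa, Crybb1 and Crygs lie inside them. Cryab overlaps Hspb2, Cryba1 overlaps Nufip2, Cryaa overlaps the antisense gene AC090881.2 and Crybb2 overlaps the pseudogene Gm43247, each on the opposite strand, and whether the counting used strand is not given in the sources used here. Of the 585 words of 50 bases in the Crygb transcript, 29.4% also occur in the transcripts of Cryga, Crygc or Gm28845, so a part of the Crygb reads may be shared with these copies, and its level is uncertain to that extent. The shared part was 19.0% for Cryab (with Hspb2) and 8.22% for Cryaa (with AC090881.2), and no word was shared for the other 7 genes.

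Libraries held 13667310 to 24356023 counts. The values of a group are given in the order of mice 1, 2 and 3. Levels are given as CPM, counts divided by the TMM-scaled library size, and levels of different genes are compared as the authors' FPKM, which is per length. At these depths 3 counts correspond to 0.123 to 0.220 CPM. Of the 13 RPE markers listed, all were present, with a summed FPKM of 22692 to 27736 in control and 16766 to 23815 in fibrosis libraries. The libraries did not sort by group in all respects: 15 photoreceptor genes summed to 7055 FPKM in control mouse 1 and 6954 FPKM in fibrosis mouse 3, against 433 to 971 FPKM in the other 4 libraries, and the lens crystallins were high in control mice 2 and 3 only. Values without single mice are therefore given beside the fold changes and ratios.

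Cryab and the lens crystallins behaved differently. Cryab was an abundant RNA that kept within 1.49 times between libraries in CPM. Each lens crystallin was at a far lower FPKM than Cryab, and its level differed severalfold between control mice. Cryab was listed at 612, 683 and 578 FPKM in control and at 813, 739 and 538 FPKM in fibrosis, which placed it between rank 64 and rank 89 of 15663 genes. The lens crystallins summed to 7.34, 86.3 and 30.3 FPKM in control and to 9.80, 3.30 and 7.77 FPKM in fibrosis mice. Control mouse 1 lay among the fibrosis mice in this sum, and control mice 2 and 3 lay above them.

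The mean of the sum was 41.3 ± 40.6 FPKM in control and 6.96 ± 3.33 FPKM in fibrosis (SD, n = 3 each), a ratio of 5.94 with a control SD about as large as the control mean. Without control mouse 2 the control mean was 18.8 FPKM. Cryab was at 624 ± 53.5 FPKM in control and 697 ± 143 FPKM in fibrosis (SD, n = 3 each). The FPKM of Cryab was 83.3, 7.91 and 19.1 times the lens sum in control, and 83.0, 224 and 69.2 times in the fibrosis mice. In bulk tissue, fewer cells of a type, less RNA per cell and a different mix of tissues in a library cannot be told apart. Which of these applied to the lens crystallins was not tested.

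**Figure D1:**
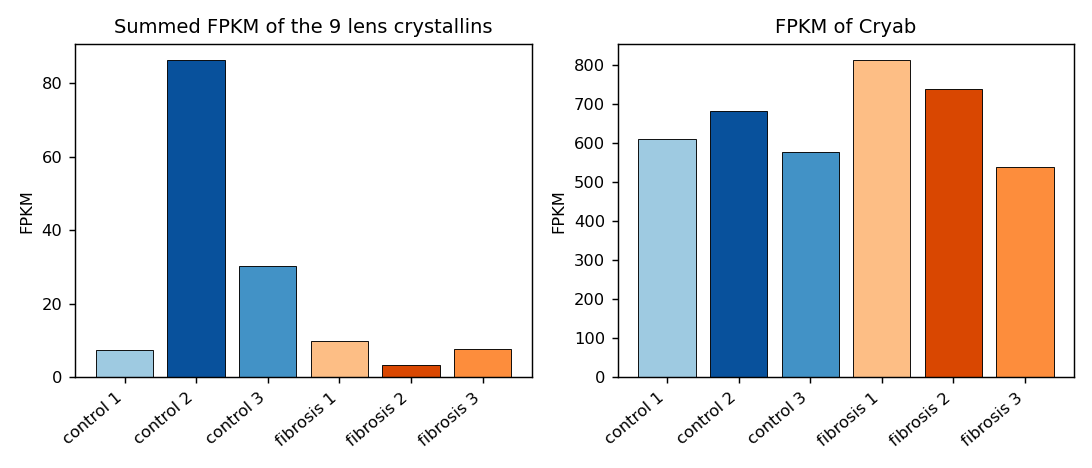
Bars give the summed FPKM of the 9 lens crystallins (left) and the FPKM of Cryab (right) in each of the 6 libraries, 1 bar a mouse, both axes from 0. The lens sum reaches 86.3 in control mouse 2 and 30.3 in control mouse 3 and is 3.30 to 9.80 in the other 4 libraries, whereas Cryab is between 538 and 813 throughout.

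The chaperones Cryaa and Cryab, which form mixed complexes in the lens, are set side by side first. Cryab was measured at 531, 598 and 506 CPM in control and at 686, 619 and 460 CPM in fibrosis. The groups overlapped, and the highest library was 1.49 times the lowest. The log2 fold change (fibrosis against control) was 0.11 ± 0.17 (SE, edgeR's quasi-likelihood test, Benjamini-Hochberg adjusted p = 1.0). Cryaa was measured at 0.819, 18.5 and 6.01 CPM in control and 1.30, 1.28 and 2.07 CPM in fibrosis. Control mouse 1 was the lowest of all 6 libraries and control mouse 2 the highest. Its log2 fold change was -2.44 ± 0.95 (SE, edgeR, adjusted p = 0.660), and the exact permutation test of the group means, two-sided, gave p = 0.4 where 0.1 is the smallest p that 3 against 3 can give.

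**Figure D2:**
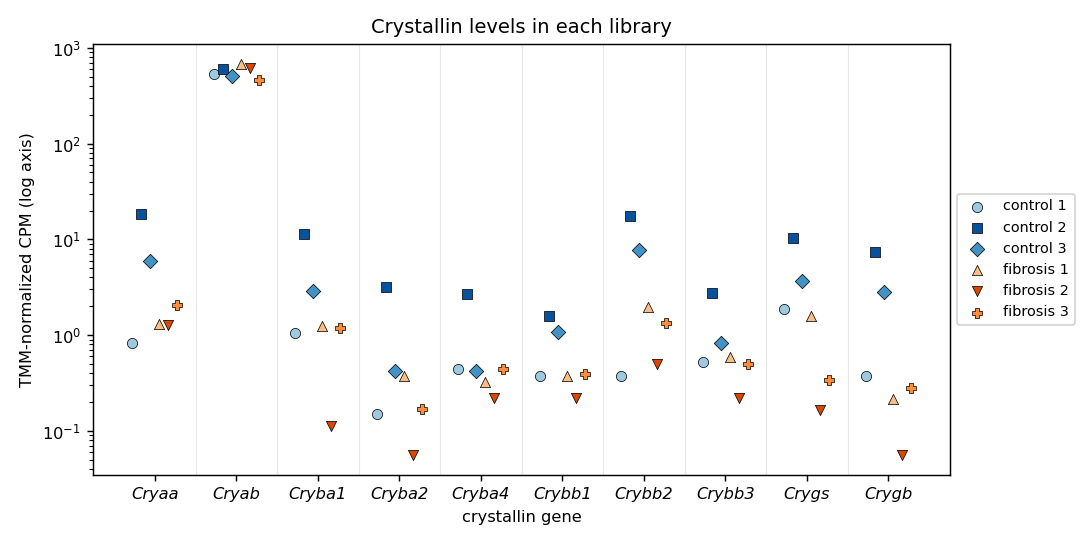
Each point is the TMM-normalized CPM of a crystallin gene in 1 library, on a log axis, with blue for control and orange for fibrosis mice. Control mouse 2 is the highest library for all 9 lens crystallins, and the 6 points of Cryab lie between 460 and 686 CPM.

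Among the beta crystallins, structural proteins of the fibre cell, Crybb2 and Cryba1 were the highest. Crybb2 was measured at 0.372, 17.4 and 7.72 CPM in control and at 1.95, 0.501 and 1.34 CPM in fibrosis. Cryba1 was measured at 1.04, 11.3 and 2.92 CPM in control and at 1.24, 0.111 and 1.18 CPM in fibrosis. For both genes control mice 2 and 3 were above the other 4 libraries, and control mouse 1 was below the fibrosis mice for Crybb2 and among them for Cryba1. The log2 fold changes were -2.74 ± 1.13 for Crybb2 (SE, edgeR, Benjamini-Hochberg adjusted p = 0.682) and -2.58 ± 1.05 for Cryba1 (adjusted p = 0.676). The exact permutation p, two-sided, was 0.4 for Crybb2 and 0.3 for Cryba1.

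The remaining beta crystallins had too few counts for the test across genes, which needed a count above 50 in 2 or more libraries. Cryba2 had 2, 58 and 10 counts in control and 7, 1 and 3 counts in fibrosis. Cryba4 had 6, 50 and 10 counts in control and 6, 4 and 8 counts in fibrosis. The excess was thus in control mouse 2 alone for Cryba4, whose CPM in control mice 1 and 3 lay within the range of the fibrosis mice. Crybb1 had 5, 29 and 26 counts in control and 7, 4 and 7 counts in fibrosis. Crybb3 had 7, 51 and 20 counts in control and 11, 4 and 9 counts in fibrosis. For these 4 genes the groups overlapped in CPM, and the exact permutation p, two-sided, was 0.2 for Crybb3 and 0.3 for the other three.

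Crygb and Crygs, the gamma crystallins, were the only crystallins here whose groups did not overlap. Crygb, a monomeric crystallin of the fibre cells in the lens centre, had 5, 137 and 67 counts in control and 4, 1 and 5 counts in fibrosis. On the CPM scale this was 0.372, 7.43 and 2.80 in control and 0.216, 0.0557 and 0.280 in fibrosis mice. Control mouse 1 was above the highest fibrosis mouse by less than 0.1 CPM, and both rested on 5 counts. The means were 3.53 ± 3.59 CPM in control and 0.184 ± 0.116 CPM in fibrosis (SD, n = 3 each).

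Crygs, the gamma crystallin that the adult lens goes on making, had 25, 189 and 89 counts in control and 29, 3 and 6 counts in fibrosis. On the CPM scale this was 1.86, 10.3 and 3.71 in control and 1.57, 0.167 and 0.336 in fibrosis, with means of 5.28 ± 4.41 and 0.690 ± 0.765 (SD, n = 3 each). Fibrosis mouse 1 came close to control mouse 1, and the other fibrosis mice were well below both. The exact permutation test, two-sided, gave p = 0.1 for each gamma crystallin, the smallest it can give.

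The log2 fold change of Crygb was -4.22 ± 1.13 (SE, edgeR, unadjusted p = 0.00723, Benjamini-Hochberg adjusted p = 0.416), and that of Crygs was -2.92 ± 0.95 (unadjusted p = 0.0184, adjusted p = 0.547). Neither was called at an adjusted p under 0.05. DESeq2, the tool the study used, gave nearly the same fold change for Crygb, -4.28 ± 1.09, and called it (Benjamini-Hochberg adjusted p = 0.0102). Crygs was at -2.94 ± 0.90 in DESeq2 and was not called (adjusted p = 0.0725). Over all genes tested, edgeR called 0% of 13454 and DESeq2 called 1.14%, with 0.334% called lower in fibrosis. Of the 6 crystallins tested, edgeR called 0 and DESeq2 called 1. At an unadjusted p under 0.05 edgeR found 943 genes in either direction.

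At the same unadjusted threshold 5 of the 6 crystallins tested were lower in fibrosis, against 2.85% of all genes tested, and groups did not overlap for 2 of the 10 crystallins, against 6.43% of tested genes that were lower without overlap. The 5 lens crystallins that were tested had more than 50 counts in control mice 2 and 3 alone, so that they entered the test through the group in which they were high and their count is no support for a difference. All 9 lens crystallins had a lower mean CPM in fibrosis, and control mouse 2 alone was the highest library for all 9.

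The call of Crygb depended on which mice were kept. In DESeq2 it was called without control mouse 1 (log2 fold change -4.80, Benjamini-Hochberg adjusted p = 1.03e-05) or without fibrosis mouse 3 (-4.71, adjusted p = 0.0169). It was not called without control mouse 2 (-3.14, adjusted p = 0.622) or fibrosis mouse 2 (-3.85, adjusted p = 0.195). Nor was it called without control mouse 3 (-4.42, adjusted p = 0.0631) or fibrosis mouse 1 (-4.41, adjusted p = 0.0667). In these last fits the fold change was no smaller in size than with all 6 mice (-4.28). Without control mouse 1, DESeq2 called 4 of the 6 crystallins (Cryaa, Crybb2, Crygb and Crygs) and 1.76% of all genes tested. Without fibrosis mouse 1 it called Crygs (-4.40, adjusted p = 0.00126) as the only crystallin, and 153 of all 13454 genes tested. Without fibrosis mouse 3, where Crygb was the only crystallin called, DESeq2 called 361 of the same 13454 genes. edgeR called no crystallin with any 1 mouse left out. Of the 6 mice, leaving out control mouse 2 gave the smallest edgeR log2 fold changes of the lens crystallins, at -1.16 for Cryaa, -1.24 for Cryba1, -1.69 for Crybb2, -2.01 for Crygs and -3.10 for Crygb. Without control mouse 1 they were -2.98 for Cryaa, -3.06 for Cryba1, -3.30 for Crybb2, -3.32 for Crygs and -4.74 for Crygb, and without fibrosis mouse 1 that of Crygs was -4.36.

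**Figure D3:**
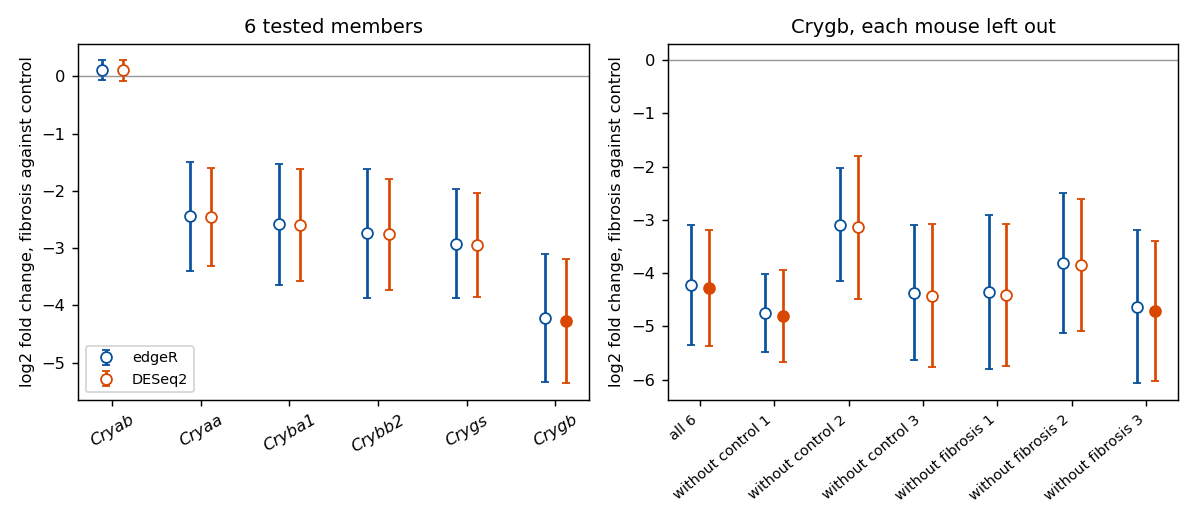
Points are log2 fold changes with their standard errors, in blue from edgeR and in orange from DESeq2, for the 6 crystallins tested (left) and for Crygb with each mouse left out (right); filled points are called at an adjusted p under 0.05 with a log2 fold change of 0.5 or more either way. Cryab lies at 0.11, and Crygb is below 0 throughout and is filled in DESeq2 only, with all 6 mice, without control mouse 1 and without fibrosis mouse 3.

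The lens crystallins varied together over the libraries, and the level of Cryab had almost no linear relation to theirs. On the log2(CPM + 0.5) scale the correlation of each lens crystallin with the mean of the others was between 0.894 (Cryba4) and 0.980 (Crybb3) over 6 libraries, and 0.970 for Crygb. For Cryab it was 0.0279. These values describe 6 points that share depth and library, and control mice 2 and 3 carry most of the spread. Both of these control mice were above the other 4 libraries for 8 of the 10 crystallins, all the lens crystallins but Cryba4, which was so for 8.06% of tested genes. Control mouse 2 was the highest library for 9 of the 10, and for 10.6% of tested genes. The 5 lens crystallins that were tested passed the count criterion through control mice 2 and 3 alone. The other 4 were not tested, while both shares are over tested genes. These counts of crystallins are therefore no support for a difference.

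The ratio of control mouse 2 to control mouse 3 in CPM was not the same for all, between 1.45 for Crybb1 and 7.54 for Cryba2. It was 2.66 for Crygb, 2.76 for Crygs and 3.08 for Cryaa. Set against control mouse 1, control mouse 2 was 46.6 times higher for Crybb2 and 22.6 times higher for Cryaa, and 1.13 times higher for Cryab.

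Ratios within a library were compared next, since they do not depend on its scaling, with 0.5 added to each count. The log2 ratio of Crygb to Cryab counts on this scale was -10.34, -6.33 and -7.49 in control and -11.46, -12.86 and -10.54 in fibrosis, a difference of -3.57 between the means. For Crygs the difference was -3.20. Neither gene's groups overlapped, with an exact permutation p of 0.1, two-sided and unadjusted over the 9 ratios compared. For Crygb the nearest libraries, control mouse 1 and fibrosis mouse 3, both had 5 Crygb counts. Their ratios differed only through Cryab, at 7133 and 8211 counts. The share of all genes whose ratios to Cryab did not overlap was not computed. The other 7 lens crystallins differed by -2.56 (Cryba1) to -1.36 (Cryba4) with overlapping groups and an exact permutation p of 0.2 to 0.4. These differences depended on single mice. Without control mouse 2 they were -2.71 for Crygb, -2.62 for Crygs and between -1.74 (Cryba1) and -0.57 (Cryba4) for the others, with Cryaa at -0.73 and Crybb2 at -0.82. Without control mouse 1 they were -4.71 for Crygb, -3.76 for Crygs, -2.86 for Cryaa and -3.44 for Crybb2. Without fibrosis mouse 2, which had 1 to 4 counts for 7 of the 9 genes, Cryba1 was at -1.46 and Cryba2 at -1.22.

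Among the lens crystallins themselves, Crygb made up 6.25%, 9.91% and 10.8% of the summed counts in control, with exact (Clopper-Pearson) 95% intervals of 2.06 to 14.0, 8.38 to 11.6 and 8.46 to 13.5. In fibrosis mice 1, 2 and 3 it made up 2.72%, 1.96% and 4.17%, with intervals of 0.746 to 6.82, 0.0496 to 10.5 and 1.37 to 9.46. Every fibrosis mouse was thus below every control mouse, while the intervals of control mouse 1 and of all the fibrosis mice overlapped, and they cover counting error only. Crygs made up 31.3% of the sum in control mouse 1 and 13.7% and 14.3% in control mice 2 and 3, against 19.7%, 5.88% and 5.0% in the fibrosis mice. Cryaa held 45.1% of the sum in fibrosis mouse 2, which had 51 counts in all, and 24.7% in control mouse 2, which had 1383. These shares were set by few counts in the 4 libraries with 147 counts or fewer.

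**Figure D4:**
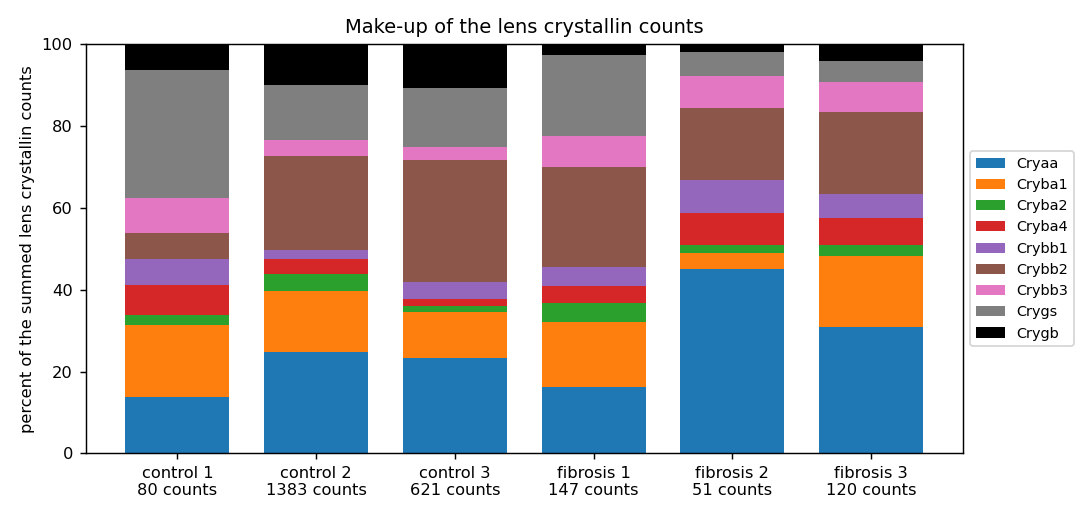
Stacked bars give the percent of the summed lens crystallin counts that each of the 9 genes holds in each library, with the summed counts under each bar. Crygb, in black, holds 6.25% to 10.8% in the control mice and 1.96% to 4.17% in the fibrosis mice.

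In order of level, as mean FPKM over the 6 libraries, Cryab (660.5) was followed by Crybb2 (6.32), Cryaa (3.91), Cryba1 (3.74), Crygs (3.35), Crygb (2.88), Crybb3 (1.25), Cryba2 (0.98), Cryba4 (0.943) and Crybb1 (0.763). The lowest library of Cryab was above the highest library of every lens crystallin. Any neighbours among the other 9 had overlapping ranges over the libraries and are not told apart by level. This order rests mostly on control mouse 2 and was not the same in both groups. Crygb had a mean of 5.45 FPKM in control, above Crybb3 (1.84), Cryba4 (1.46) and Crybb1 (1.14), and 0.310 FPKM in fibrosis, below the same genes (0.653, 0.427 and 0.390).

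Genes whose RNA followed the lens crystallins most closely were looked for over all tested genes, by the correlation of log2(CPM + 0.5) over 6 libraries with the mean of the lens crystallins. The 10 nearest were Tmem126a (0.989), Tmem232, Slc4a5, Fancm, Kcnj2, Slc2a1, Poldip2, Egr3, Ppp1r16b and Timm50 (0.949), and no gene from the lens lists was among them. Most of these moved over a narrow range: Tmem126a was between 38.7 and 45.1 CPM, and Slc2a1, the glucose transporter of the RPE, between 1030 and 1580 CPM. Egr3, an immediate early transcription factor, had the widest, at 1.79, 8.95 and 3.96 CPM in control and 0.757, 0.780 and 1.23 CPM in fibrosis.

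Other genes of the lens were measured beside the crystallins. Of 11 further lens fibre genes 4 were listed and 2 of these tested, and 0 passed an unadjusted p under 0.05. The genes that were not listed, among them Mip and Lim2, were not analysed here. Bfsp2, which with Bfsp1 builds the beaded filament of the fibre cell, was measured at 23.1, 39.7 and 34.9 CPM in control and at 35.9, 30.6 and 28.4 CPM in fibrosis, with a log2 fold change of -0.04 ± 0.21 (SE, edgeR, Benjamini-Hochberg adjusted p = 1.0). Bfsp1 had means of 3.66 CPM in control and 4.31 CPM in fibrosis, without overlap (edgeR, log2 fold change 0.24 ± 0.26, SE, adjusted p = 0.986). Gja3 and Grifin had too few counts for the test. Their means were 0.514 and 0.423 CPM in control and 0.776 and 1.86 CPM in fibrosis, with overlap for Gja3 and without it for Grifin. Of 14 further genes with crystallin names, 9 were listed and tested, with a median log2 fold change of 0.05, and Cryz, a quinone reductase, was the only gene with an unadjusted p under 0.05 (edgeR, log2 fold change -0.35, adjusted p = 0.604). Cryga, Crygc, Crygd, Cryge and Crygf, the close copies of Crygb, were not among the genes listed and so were not analysed here. Crygn, the nearest of these genes to the lens crystallins by correlation (0.787), had 116, 291 and 315 counts in control and 230, 159 and 120 counts in fibrosis.

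Of 10 lens transcription factors 9 were listed and 6 tested. Of those tested, 3 had a log2 fold change above 0 and 3 below 0. Maf had a log2 fold change of 0.10 ± 0.20 (SE, edgeR, Benjamini-Hochberg adjusted p = 1.0). Pax6 was at -0.31 ± 0.25 (adjusted p = 0.939) and Six3 at -0.12 ± 0.31. Pitx3, Sox2 and Sox1 had too few counts for the test. Their means were 0.561, 1.05 and 0.308 CPM in control and 1.07, 1.45 and 0.185 CPM in fibrosis, without overlap for Pitx3 only. Prox1, which is also made in retina, was at 38.9 and 37.0 CPM in control mouse 1 and fibrosis mouse 3, the libraries rich in photoreceptor RNA, and at 3.79 to 10.1 CPM in the others. Of 8 further small heat shock proteins, the family of the alpha crystallins, 6 were tested and 5 of these had a higher mean in fibrosis. Hspb6 alone passed an unadjusted p under 0.05, at 74.4, 83.4 and 61.8 CPM in control and 106, 109 and 82.0 CPM in fibrosis (edgeR, log2 fold change 0.43 ± 0.16, Benjamini-Hochberg adjusted p = 0.629). Hspb2, the neighbour of Cryab, was at 0.13 ± 0.32.

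Marker genes of the other cells around the RPE are given beside the crystallins. The surface epithelium list (9 of 9 lower in fibrosis, 0 with an unadjusted p under 0.05) summed to 244, 877 and 1714 FPKM in control and to 885, 874 and 520 FPKM in fibrosis. Control mice 2 and 3 were in the other order than for the lens crystallins. The skeletal muscle list (11 of 12 listed, all 11 higher in fibrosis, 0 with an unadjusted p under 0.05) summed to 1205 to 2089 FPKM in control and 830 to 2912 FPKM in fibrosis. It was highest in fibrosis mice 1 and 2 and control mouse 2 and lowest in fibrosis mouse 3, and so was Cryab, which muscle also makes. The macrophage list (7 of 10 higher with an unadjusted p under 0.05) summed to 1055 to 1370 and 2704 to 4011 FPKM, and in the RPE list 6 of 13 were lower with an unadjusted p under 0.05. The photoreceptor list (0 of 15 with an unadjusted p under 0.05) was lowest in control mouse 3 and the fibrosis mice 1 and 2 and highest in control mouse 1. Summed FPKM was 6237 to 7679 in control and 6779 to 9755 in fibrosis for 8 genes of Mueller glia and astrocytes, and 323 to 425 and 341 to 760 for 6 Schwann cell genes, none of which passed that threshold. With the photoreceptor level as a covariate the edgeR log2 fold changes were -4.20 for Crygb, -3.17 for Crygs, -2.29 for Cryaa, -2.54 for Crybb2 and -2.51 for Cryba1. Their Benjamini-Hochberg adjusted p was 0.218 (Crygs) to 0.508 (Cryaa), and 0.235 for Crygb. Without the covariate the fold changes were -4.22, -2.92, -2.44, -2.74 and -2.58 in the same order. The part of any of these lists in the crystallin values was not tested.

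**Figure D5:**
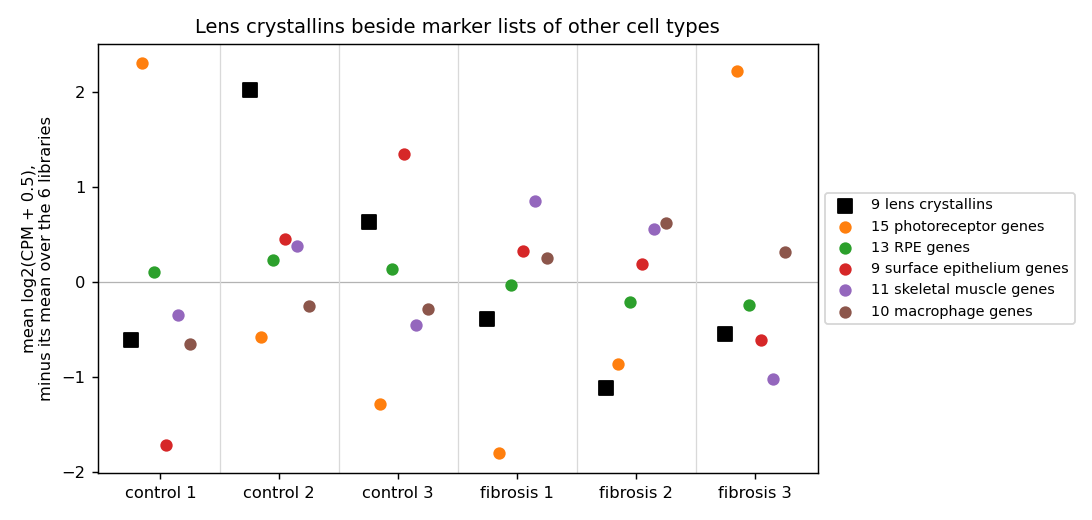
Points give the mean log2(CPM + 0.5) of each list in each library, minus that list's mean over the 6 libraries. The lens crystallins (black squares) are highest in control mouse 2, the surface epithelium genes in control mouse 3 and the photoreceptor genes in control mouse 1 and fibrosis mouse 3.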

How the data were processed

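RNA-seq of RPE-choroid from 3 control and 3 fibrosis mice was analysed, with groups and mouse numbers taken from the labels. The authors filtered the reads, counted them on genes with StringTie and deposited the counts without normalization. The authors also deposited FPKM, scaled by transcript length and mapped reads. The aligner, build, annotation and strand setting are not given in the sources used here. No listed gene has a count under 1 in any library. GENCODE M21 (GRCm38) held 15659 of the 15663 identifiers and gave the positions, and promoters were taken from RefSeq on GRCm38.p6.

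The 13454 genes with a count above 50 in 2 or more libraries were tested with edgeR 4.0.16 in R 4.3.3 (TMM, quasi-likelihood, legacy = TRUE, group as the only term), adjusted over all tested genes by Benjamini-Hochberg. Calls needed an adjusted p under 0.05 with an absolute log2 fold change of 0.5 or more. DESeq2 1.42.0 and limma 3.58.1 served as alternatives. Single values were compared by an exact permutation test, two-sided. Standard errors were taken from the edgeR F statistic. Correlations and list means used log2(CPM + 0.5). The scripts were tested on simulated data. Named genes were all crystallins chosen by symbol, the 10 tested genes nearest to the lens crystallins and genes of the fixed lists. Egr3, Bfsp1, Bfsp2, Gja3, Crygn, Prox1, Pitx3, Sox1, Sox2, Grifin and Crym were described in more detail after their values were seen. The members and lists were chosen with earlier results of these data known. The p-values rest on 3 mice a group. Those of edgeR, DESeq2 and limma also draw their estimate of the spread from the other genes in the fit. A result on 1 gene of these lists is not reported here.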

Additional observations from a re-analysis of the deposited data

How the results depend on the processing

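The fold changes of the 5 lens crystallins tested stayed below 0 under each alternative in which they were tested, among them other normalizations, DESeq2, limma on FPKM, no filter and each mouse left out. For Crygb the log2 fold change was between -4.80 and -1.85 over 21 alternatives. With edgeR's own expression filter (filterByExpr) Crygb was not among the tested genes. Cryab was between -0.02 and 0.26 over its alternatives and turned to -0.016 without fibrosis mouse 1, in edgeR and in DESeq2. The number of genes called depended on the tool, from 0 in edgeR to 153 in DESeq2, with 1 under legacy = FALSE, no filter, filterByExpr or the photoreceptor covariate, and 2 in limma with 0.1 or 1 added to FPKM. With single mice left out it was 0 to 5 in edgeR (5 without control mouse 1) and 67 to 361 in DESeq2 (237, 91 and 182 without control mouse 1, 2 and 3). The crystallins called were 0 in each edgeR and limma setting, 1 in DESeq2 and 0 to 4 in DESeq2 with single mice left out. DESeq2 with mice left out or with the replicate block was chosen after seeing the data. Same-numbered mice did not deviate together (correlations -0.47, 0.50 and -0.28), and only fibrosis mouse 2 correlated best with its own number, so the numbers are not taken to pair them; the replicate block gave Crygb -3.57 (edgeR, Benjamini-Hochberg adjusted p = 0.541) with 0 genes called, and -3.55 in DESeq2 (adjusted p = 0.114) with 201 genes and 0 crystallins called. Depth limits the genes with fewer than about 10 counts in most libraries, Cryba2, Cryba4, Crybb1 and Crybb3 and also Crygb in the fibrosis mice, which had 1 to 5 counts.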

Other observations

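Grifin, a galectin-like protein of the lens fibre, had 6, 9 and 8 counts in control and 42, 33 and 26 counts in fibrosis. This was 0.423 ± 0.0800 CPM in control and 1.86 ± 0.408 CPM in fibrosis (SD, n = 3 each), without overlap, with an exact permutation p of 0.1, two-sided, the smallest it can give. It had too few counts for the test across genes, and it was picked out after its values were seen. Crym, a thyroid hormone binding protein also known as mu crystallin, was at 24.9, 10.5 and 8.85 CPM in control and 21.7, 20.5 and 50.8 CPM in fibrosis. Its highest library was fibrosis mouse 3, which was rich in photoreceptor RNA, and its log2 fold change was 1.08 ± 0.51 (SE, edgeR, Benjamini-Hochberg adjusted p = 0.763).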
